A study of Mus musculus with 9 samples.

Results

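The heat shock proteins and chaperones described here are 88 of the 26214 genes in the deposited table, defined by a rule on gene symbols: genes beginning with Hspa, Hspb or Hsp90, Hspd1, Hspe1 and Hsph1, the numbered Dnaja, Dnajb and Dnajc genes, the Cct subunits with Tcp1, and Bag1 to Bag6. They comprise 43 J-domain proteins, 14 genes of the HSP70 and HSP110 class, 10 chaperonin genes, 8 small heat shock proteins, 6 BAG proteins, 3 HSP90 genes, the HSP60 and HSP10 genes, and 2 HSP-binding proteins (Hspbp1 and Hspbap1). Their RNA was measured in stromal cells of male C57Bl/6J mice, 8 to 12 weeks of age, 1 day after an injection into the quadriceps. ASCs (3 libraries) came from subcutaneous adipose tissue (ScAT) and FAPs (2 libraries) from the quadriceps of mice given NaCl. Injured FAPs (3 libraries) came from quadriceps damaged with glycerol. All were sorted magnetically as CD45-/CD31-/Sca-1+ cells, and a further library held CD31+CD45+ cells of glycerol-injected quadriceps, without replicate. The methods of the study describe triplicates made from a pool of cells of 3 animals, and they do not say whether replicates of a group shared a pool. ScAT and muscle were digested with different enzymes, so that tissue and digestion cannot be told apart in comparisons with ASCs. Both FAP groups shared the muscle protocol.

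Chaperones keep proteins soluble and help them fold. HSP70 proteins bind unfolded segments that J-domain proteins hand to them, and release them with the help of exchange factors such as the HSP110 and BAG proteins. HSP90 matures kinases and receptors, the cytosolic chaperonin CCT folds actin and tubulin in its chamber, and small heat shock proteins hold unfolded proteins until they are refolded. The endoplasmic reticulum (ER) and the mitochondria have their own HSP70 proteins and partners. Stromal cells of muscle and fat secrete collagens, which load the ER, and heat shock genes of the inducible kind are known to rise with heat, with other protein-damaging stress and during enzymatic dissociation of tissue.

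The libraries held 27481573, 27349184 and 27402102 reads on genes in ASCs, 24052508 and 24164447 in FAPs, 26968235, 26698572 and 27028114 in injured FAPs and 13091077 in CD31+CD45+ cells. The 88 genes took 1.3405%, 1.53% and 1.42% of the summed values in the ASC libraries, 1.74% and 1.65% in FAPs, 1.96%, 1.94% and 2.09% in injured FAPs and 2.03% in CD31+CD45+ cells (Wilson 95% interval 2.02% to 2.03%). The share was thus lowest in ASCs and highest in injured FAPs among the stromal groups, with no overlap between the 3 groups. The order of ASCs and FAPs rested on Hspa1a and Hspa1b, without which the other 86 genes took 1.31, 1.42 and 1.36% in ASCs, 1.23 and 1.19% in FAPs and 1.90, 1.89 and 1.98% in injured FAPs. The summed normalized values of the 88 genes, on the scale used for the tests, were instead highest in ASCs. They came to 485288, 474520 and 488339 in ASCs, 415737, 402329 and 430207 in injured FAPs and 398937 and 375123 in FAPs. The place of ASCs thus depends on the scale. The Wilson intervals, and the value that 3 reads amount to (2.29 to 3.95 in the 8 stromal libraries, 4.71 in the CD31+CD45+ library), cover counting error only. Of the 88 genes, 80 had a mean of at least 10 over the 8 stromal libraries and were tested. The other 8 were Dnajb8, which was at 0 in all 9 libraries, and Cct8l1, Dnajb13, Hspb9, Hspb3, Dnajb7, Dnajc22 and Cct6b, whose highest value in any of the 8 stromal libraries was 6.28.

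**Figure D1:**
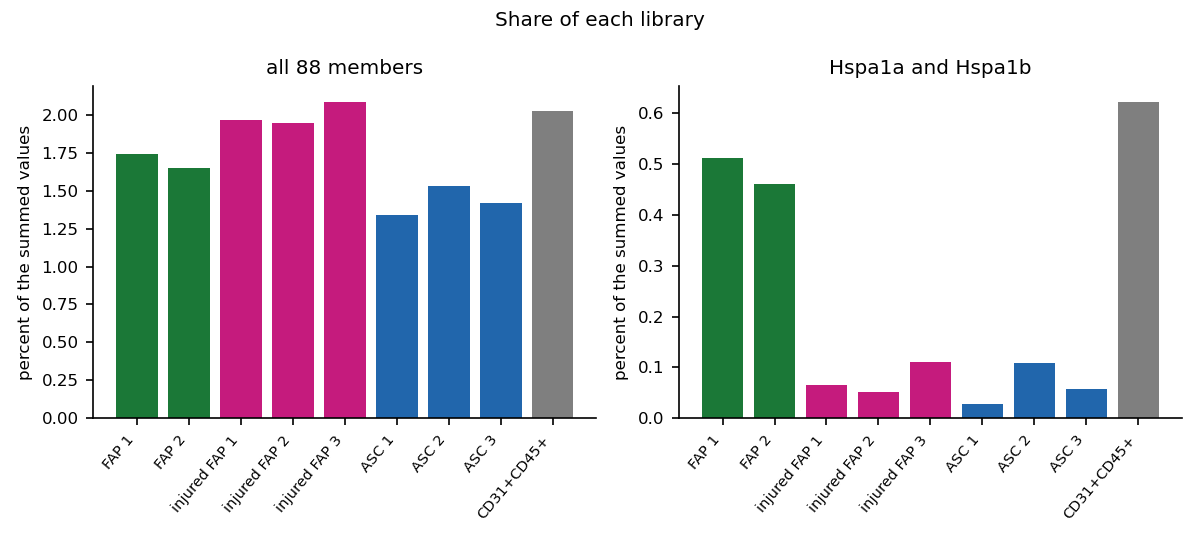
Share of the summed normalized values (y axis, percent) taken by all 88 genes (left) and by Hspa1a with Hspa1b (right) in each of the 9 libraries (x axis), coloured by group. All 88 genes took between 1.3405% and 2.09%, and Hspa1a with Hspa1b took 0.511% and 0.462% in FAPs against at most 0.111% in ASCs and injured FAPs.

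The libraries carried the transcripts of stromal cells that their labels name. The 9 stromal markers (Ly6a, which encodes Sca-1, Cd34, Pdgfra, Pdgfrb, Thy1, Dcn, Lum, Col1a1 and Col3a1) took 8.32, 8.96 and 9.27% of the ASC libraries, 6.89 and 7.52% of FAPs, 3.30, 3.65 and 3.30% of injured FAPs and 0.337% of the CD31+CD45+ library, and none was at 0. Col1a1 was the highest of them in mean over the stromal libraries.

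Differences between groups were tested with limma on log2(value + 1) of the normalized values, for the 13601 genes whose average was 10 or more. A gene was called higher or lower if its Benjamini-Hochberg adjusted p was below 0.05 and its log2 fold change exceeded 0.58 in size. The scale understates the change of genes with low values. The 3 comparisons share libraries in pairs and are not independent.

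Injured FAPs were compared with FAPs, which sets sorted stromal cells of glycerol-injected and NaCl-injected quadriceps side by side. The inducible HSP70 genes Hspa1a and Hspa1b fell to about the level of ASCs. All tested subunits of the chaperonin CCT and the mitochondrial chaperones Hspd1, Hspe1 and Hspa9 rose. The paper reports that the early increase in FAPs after injury comes largely from ASCs that left ScAT and entered the muscle. A fall or rise here therefore describes the sorted libraries. Changes within cells were not told apart from changes in which cells were sorted. In all, 33 of the 80 tested members (41.25%) were called higher in injured FAPs, against 24.9% of all genes tested, and 15 (18.75%) lower, against 27.7%. Their median log2 fold change was 0.35, beside −0.05 over all 13601 genes, and the members ranged from −2.92 (Hspa1l) to 2.40 (Hspd1). Among members averaging 100 or more whose libraries did not overlap between the groups, the largest rises were those of Hspd1, Dnajc9, Tcp1, Hspa9, Cct3 and Cct6a, and the largest falls those of Hspa1a, Hspa1b, Hspa12b, Hspb1, Hspa12a and Dnajb1. None of these 12 changes turned in direction in any alternative setting, single libraries left out included. None lost its call in a setting that kept all libraries. The 12 were picked for size and separation in these same libraries, so this is no separate check of them.

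Comparing ASCs with FAPs, which sets stromal cells of uninjured mice from fat and muscle side by side, the small heat shock protein Hspb8, its partner Bag3 and the ER J-domain protein Dnajb9 were higher in ASCs, while Hspa1a, Hspa1b, Hspb1, Hspb6 and Hspb7 were lower. Again 33 of 80 members were called higher, against 23.4% of all genes, and 15 lower, against 23.8%. The median was 0.26 beside 0.00 over all genes. The equal counts do not mean equal genes, as the values by role show. The split depended on how the libraries were scaled. With all libraries brought to a common total, 10 members were called higher and 24 lower and the median turned to −0.31.

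Comparing injured FAPs with ASCs, 24 members were called higher, against 25.0% of all genes, and 16 lower, against 25.8%, and the median was 0.21 beside 0.02 over all genes. Injured FAPs held more Hspb7, Dnajc9, Hspd1, Bag2, Hspa14 and Dnajc2, and less Hspb8, Hspa2, Dnajb1, Dnajb9, Bag3 and Bag5. With a common total 47 members were called higher and 8 lower. That scaling moved the median of all genes by 0.13 in injured FAPs against FAPs, by −0.56 in ASCs against FAPs and by 0.69 in injured FAPs against ASCs. As a result 20.1% of all called genes were higher in ASCs than in FAPs (49.6% with the deposited scaling) and 81.3% higher in injured FAPs than in ASCs (49.3%). A common 75th percentile moved the same medians by −0.09, −0.21 and 0.11. Relative to the median of all genes the members stood at 0.40, 0.25 and 0.19 in the 3 comparisons with the deposited scaling, and at 0.44, 0.18 and 0.36 with quantile normalization. A common total or percentile moves all genes of a library alike and so hardly changes these differences. The shares of all genes called in each comparison are also the ones to set beside the counts by role and list.

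**Figure D2:**
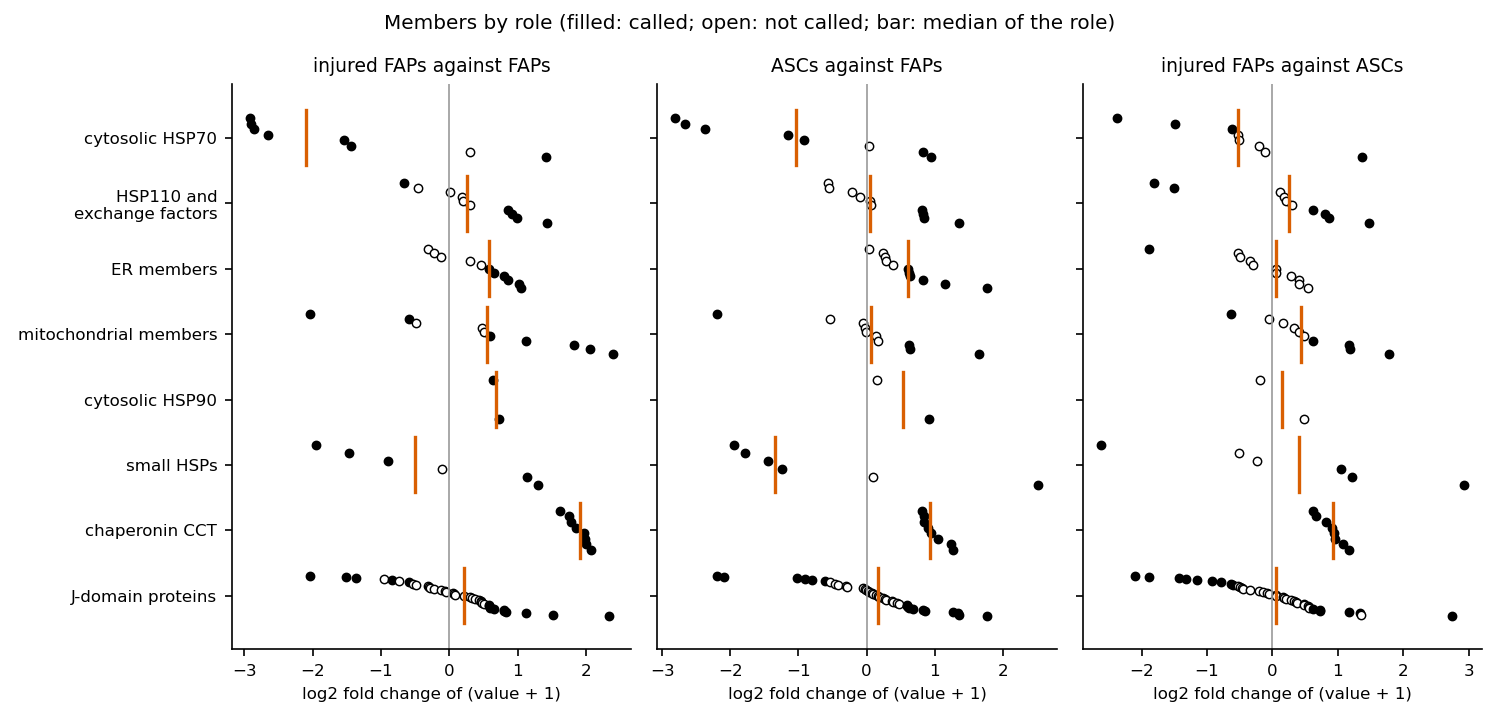
Log2 fold change of (value + 1) on the x axis for each tested member (filled when called, open when not), grouped on the y axis by role, in the 3 comparisons; the orange bar is the median of the role and J-domain proteins of the ER and mitochondria also stand under their compartments. The CCT subunits lie right of 0 in all 3 panels, and the cytosolic HSP70 genes spread from −2.92 to 1.42 in the left panel; the median of several roles in the middle panel turns negative when the libraries are brought to a common total, and that of the HSP70 genes in the right panel turns positive.

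Hspa1a and Hspa1b encode the stress-inducible HSP70 of the cytosol. They are near-identical neighbours on chromosome 17 (GRCm38), Hspa1a at chr17:34969190-34972156 and Hspa1b at chr17:34956436-34959238, both on the minus strand and 9951 bases apart. Of their 50-base stretches, 66.3% in Hspa1a and 62.3% in Hspa1b also occur in other genes, mostly in each other, and the handling of reads with several matches is not stated, so that the division of reads between them is uncertain. Their RefSeq promoters (GRCm38.p6) are shown because the pair moved together. The 180 bases just before each annotated start, outside any exon, are at chr17:34972157-34972336 and chr17:34959239-34959418 on the minus strand, with the motif GAANNTTC in capitals, which is a pair of the units that make up a heat shock element:
Hspa1a: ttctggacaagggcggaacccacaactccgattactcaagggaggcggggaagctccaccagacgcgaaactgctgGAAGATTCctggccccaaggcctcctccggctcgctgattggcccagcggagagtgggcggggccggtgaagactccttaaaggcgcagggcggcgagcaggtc
Hspa1b: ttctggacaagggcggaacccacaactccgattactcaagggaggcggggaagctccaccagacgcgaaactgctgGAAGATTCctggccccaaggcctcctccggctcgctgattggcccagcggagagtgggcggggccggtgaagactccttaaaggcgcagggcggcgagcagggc
The stretches differ at 1 of 180 positions, and the motif begins 104 bases before the start in both.

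Hspa1a stood at 42226 and 40113 in the FAP libraries, at 5138, 3949 and 8205 in injured FAPs and at 4263, 13716 and 8528 in ASCs. Both FAP libraries lay far above the other 6, and the injured FAP and ASC libraries overlapped. Its log2 fold change was −2.90 (SE 0.42, limma adjusted p = 0.000154) in injured FAPs against FAPs and −2.38 (SE 0.42, adjusted p = 0.000697) in ASCs against FAPs. Hspa1b behaved alike, with 74740.3 and 64923 in FAPs, 8771, 6852 and 14576 in injured FAPs and 6155, 19716 and 11007 in ASCs. It fell by 2.86 on the log2 scale in injured FAPs (SE 0.42, limma adjusted p = 0.000183) and stood at −2.66 in ASCs against FAPs (adjusted p = 0.000363). Within ASCs replicate 2 was the highest and replicate 1 the lowest for both genes, a wider spread than between the FAP libraries. Between injured FAPs and ASCs neither gene was called (log2 fold change −0.53 and −0.20), although Hspa1a was called lower in injured FAPs, at −0.98, once ASC replicate 1 was left out. With a common total both values turned, to 0.17 and 0.50. As a share of the library the pair took 0.511% and 0.462% in FAPs, 0.0657%, 0.0522% and 0.111% in injured FAPs, 0.0288%, 0.108% and 0.0568% in ASCs and 0.623% in the CD31+CD45+ library (Wilson 95% interval 0.619% to 0.627%). The direction of both falls against FAPs held in each of the 22 alternatives, with log2 fold changes of −3.19 to −2.66 for Hspa1a and −3.17 to −2.62 for Hspa1b in injured FAPs.

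The other cytosolic HSP70 genes did not follow a single course. Hspa8, the constitutive HSP70, stood at 60967 and 55174 in FAPs, 73842, 65677 and 75982 in injured FAPs and 103586, 100762 and 103759 in ASCs. It was called higher in ASCs than in FAPs (log2 fold change 0.82, limma adjusted p = 0.000566), but not with a common total (0.26) or quantile normalization (0.15), and it was not called between the FAP groups (0.31; 0.75, called, with quantile normalization). Between injured FAPs and ASCs its value of −0.52 was not called either and became 0.60, called, with quantile normalization. Of its 50-base stretches 74.8% occur in other genes, mainly a pseudogene, which makes its level uncertain. Hspa2, an HSP70 best known from the testis, ran from 454 and 497 in FAPs to 188, 159.6 and 178 in injured FAPs and 989, 811 and 949 in ASCs, so that the 3 groups did not overlap and injured FAPs were lowest. It fell in injured FAPs (log2 fold change −1.44, limma adjusted p = 8.99e-06) and was higher in ASCs than in FAPs (0.94; 0.38, not called, with a common total). Hspa14, which works with Dnajc2 at the ribosome, rose from 480.2 and 434 in FAPs to 1262, 1169 and 1236 in injured FAPs (1.42, adjusted p = 2.69e-05), and ASCs at 389.9, 583 and 456 overlapped with FAPs.

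Hspa12a and Hspa12b, distant relatives of HSP70, were lower in both other groups than in FAPs. Hspa12a stood at 2095 and 1659.5 in FAPs, 1049, 1016 and 894 in ASCs and 658, 634 and 626 in injured FAPs, with no overlap between groups. Hspa12b stood at 1019 and 1161 in FAPs, 312, 589 and 626 in ASCs and 165, 215 and 143 in injured FAPs. Their log2 fold changes in injured FAPs against FAPs were −1.54 (limma adjusted p = 3.41e-06) and −2.65 (adjusted p = 1.92e-05). Between injured FAPs and ASCs both were called lower, but the value of Hspa12a, −0.62, turned to 0.08 with a common total and lost its call with a common 75th percentile, with edgeR and without ASC replicate 1. Hspa1l, a further HSP70 gene beside Hspa1a, had 290.0 and 154 in FAPs and at most 47.3 in the other 6 libraries. Of its sequence, 71.4% of the 50-base stretches lie in a gene on the opposite strand, whose reads could not be told apart without the strand setting of the counting. Taken over the 8 genes of the group, 1 was called higher and 6 lower (27.7% of all genes were lower) in injured FAPs against FAPs (median −2.10), 2 and 5 in ASCs against FAPs (−1.04). Against ASCs 1 was higher and 3 were lower in injured FAPs, and the median of −0.52 turned to 0.18 with a common total.

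Immediate early genes, which like the inducible HSP70 genes can be switched on within minutes of a stimulus, were measured beside them as a list of 21. Of these, 3 were called higher and 11 lower in injured FAPs against FAPs, 10 and 4 in ASCs against FAPs (median 0.45, −0.12 with a common total and −0.30 with quantile normalization), and 0 and 17 in injured FAPs against ASCs. In the last comparison a common total gave 2 higher and 7 lower, and quantile normalization 3 and 10. In ASCs against FAPs a common total gave 8 higher and 7 lower, quantile normalization 6 and 7 and a common 75th percentile 9 and 4. Their summed values were 1096390.0, 1178170.0 and 1360320.0 in ASCs, 812022 and 715887 in FAPs, 436127, 398050.0 and 364082 in injured FAPs and 704271 in the CD31+CD45+ library. None was at 0, and the leading gene was Fosb in ASCs, Egr1 in FAPs and Zfp36 in injured FAPs. Egr1 fell from 161561 and 163772 in FAPs to 28857, 35053 and 25086 in injured FAPs and stood at 111363, 145408 and 159995 in ASCs. As a share of the library they took 3.03, 3.80 and 3.95% in ASCs, 3.55 and 3.15% in FAPs and 2.06, 1.92 and 1.77% in injured FAPs, so that ASCs and FAPs overlapped and injured FAPs were lowest. The part of these genes in the HSP70 result was not tested.

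**Figure D3:**
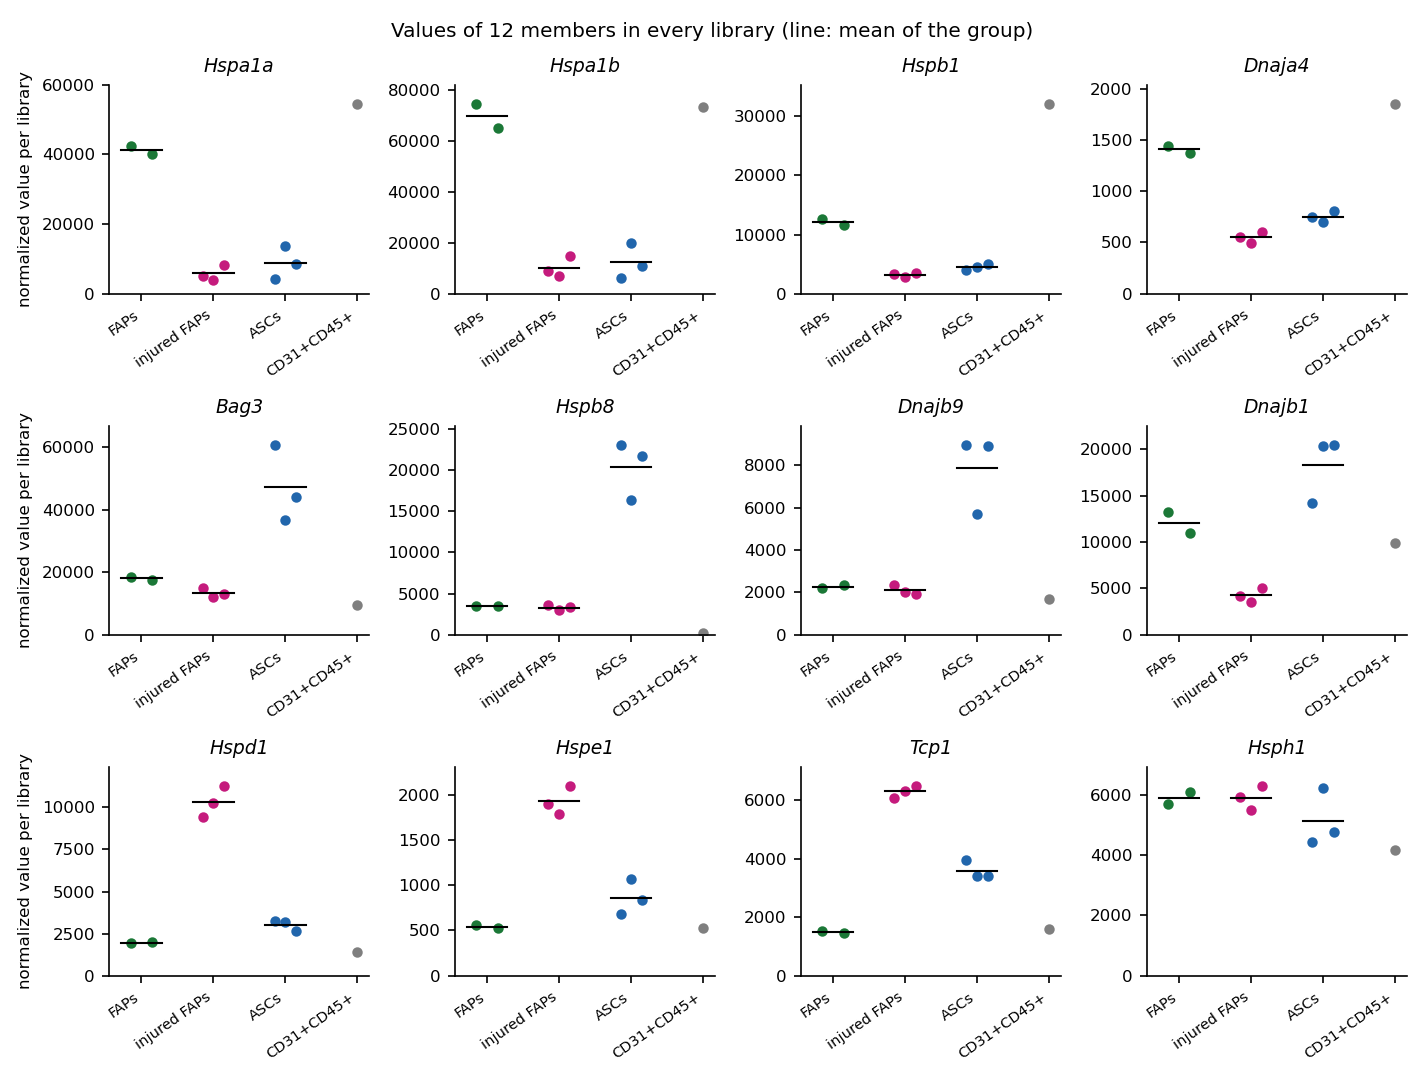
Normalized value (y axis, linear and starting at 0, scaled for each gene) of 12 members in every library of the 4 groups (x axis); points are libraries and lines are group means. Hspa1a, Hspa1b, Hspb1 and Dnaja4 are highest in FAPs among the stromal groups, Bag3, Hspb8 and Dnajb9 in ASCs, Hspd1, Hspe1 and Tcp1 in injured FAPs, and Hsph1 overlaps between them; the higher value of Dnajb1 in ASCs than in FAPs turns with quantile normalization.

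The small heat shock proteins divided between those high in FAPs and those high elsewhere. Hspb1 (HSP25), a widely expressed holder of unfolded proteins that also binds actin filaments, is at chr5:135887919-135889563 on the plus strand. Its promoter is shown for comparison with the HSP70 pair, as the 180 bases before the annotated start at chr5:135887739-135887918, outside any exon, with both pairs of units in capitals:
Hspb1: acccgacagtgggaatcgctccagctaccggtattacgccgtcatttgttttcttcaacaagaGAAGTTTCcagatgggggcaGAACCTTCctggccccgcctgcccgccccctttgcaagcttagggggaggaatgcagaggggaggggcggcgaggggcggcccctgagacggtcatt
Hspb1 stood at 12618 and 11598 in FAPs, 3277, 2726 and 3424 in injured FAPs and 4026, 4419 and 4932 in ASCs, again with both FAP libraries above the other 6. It fell in injured FAPs (log2 fold change −1.95, SE 0.13, limma adjusted p = 1e-06) and was lower in ASCs than in FAPs (−1.44, adjusted p = 6.64e-06). The difference of −0.51 between injured FAPs and ASCs was not called, since it did not pass the fold change threshold. A pseudogene shares 51.6% of the 50-base stretches of Hspb1.

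Hspb8 and Bag3 form a complex that hands damaged filament proteins to autophagy, and both were highest in ASCs. Hspb8 stood at 23155, 16379.8 and 21811 in ASCs, 3496 and 3535 in FAPs and 3539, 2991 and 3324 in injured FAPs. All 3 ASC libraries lay above the other 5, and the FAP groups overlapped. The log2 fold change was 2.52 in ASCs against FAPs (SE 0.15, limma adjusted p = 4.66e-07), −2.63 in injured FAPs against ASCs (adjusted p = 9.85e-08) and −0.10, not called, between the FAP groups. Bag3 stood at 60917, 36703 and 43987 in ASCs, 18564 and 17637 in FAPs and 14782, 12008 and 12859 in injured FAPs. It was higher in ASCs than in FAPs (log2 fold change 1.35, limma adjusted p = 0.00017; 0.47, not called, with quantile normalization) and lower in injured FAPs than in ASCs (−1.81, adjusted p = 6.72e-06). Cryab, a further small heat shock protein outside the symbol rule, had a similar order, with 7903, 6379 and 8514 in ASCs, 4476 and 4689 in FAPs and 3211, 2550.5 and 2769 in injured FAPs.

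Hspb6 and Hspb7, known from smooth, cardiac and skeletal muscle, were lowest in ASCs. Hspb6 stood at 216 and 164 in FAPs, 97.3, 112 and 91.5 in injured FAPs and 52.7, 47.6 and 43.9 in ASCs, and the 3 groups did not overlap. Hspb7 stood at 157 and 148 in FAPs, 390.0, 299.9 and 328 in injured FAPs and 39.5, 78.1 and 26.4 in ASCs. Injured FAPs were thus the highest group for Hspb7 and the middle group for Hspb6. The rise of Hspb7 in injured FAPs (log2 fold change 1.14, limma adjusted p = 0.0169) lost its call once FAP replicate 1, FAP replicate 2 or injured FAP replicate 1 was left out. Its lower value in ASCs than in FAPs (−1.79) kept its call under every alternative. Hspb2, on the opposite strand to part of Cryab on chromosome 9, stood at 166 and 198 in FAPs and at most 101.4 in the other 6 libraries. Hspb11, a subunit of the transport machinery of cilia, rose from 60.9 and 57.4 in FAPs to 133, 146 and 165 in injured FAPs (1.30, adjusted p = 0.000222). Of the 8 small heat shock proteins, 6 passed the filter on low values. In injured FAPs against FAPs 2 of these (33.3%, beside 24.9% of all genes) were called higher and 3 (50%, beside 27.7%) lower. In ASCs against FAPs 1 (16.7%, beside 23.4%) was higher and 4 (66.7%, beside 23.8%) lower. Between injured FAPs and ASCs 3 (50%, beside 25.0%) were higher and 1 (16.7%, beside 25.8%) lower in injured FAPs.

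Markers of smooth muscle and pericytes were likewise highest in FAPs among the stromal groups. All 8 of the list (Acta2, Myh11, Tagln, Cnn1, Rgs5, Mcam, Des and Notch3) were called lower in injured FAPs than in FAPs, and 8 in ASCs than in FAPs. Against ASCs, 6 were higher and none lower in injured FAPs. Their summed values were 20210.3 and 16932 in FAPs, 5929, 6318 and 6160.4 in injured FAPs, 1672, 1013 and 1288 in ASCs and 96297 in the CD31+CD45+ library, with none at 0 and Rgs5 the highest in mean over the stromal libraries. Markers of skeletal muscle fibres, of which 11 of 14 were tested, summed to 1106 and 1247 in FAPs, 370.3, 397 and 301 in injured FAPs and 183, 138 and 179.5 in ASCs, with 8 called lower in injured FAPs and 11 in ASCs than in FAPs. Tnnt3 and Acta1 led this list. Fewer cells of a type and less RNA in each cell cannot be told apart in such libraries, and the part of these cells in the values of the small heat shock proteins was not tested.

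The cytosolic chaperonin CCT, a ring of different subunits that share a common fold, was the most uniform group. All 8 tested subunits (Tcp1, Cct2, Cct3, Cct4, Cct5, Cct6a, Cct7 and Cct8) were called higher in injured FAPs than in FAPs, in ASCs than in FAPs and in injured FAPs than in ASCs. Their log2 fold changes ran from 1.61 to 2.08 (median 1.91) in injured FAPs against FAPs, from 0.81 to 1.26 (0.93) in ASCs against FAPs and from 0.61 to 1.17 (0.92) in injured FAPs against ASCs. Tcp1, the founding subunit, stood at 1530.0 and 1461 in FAPs, 3953, 3424 and 3415 in ASCs and 6096, 6324 and 6514 in injured FAPs. Cct2 stood at 1682 and 1686, 3196, 3032 and 2867 and 5277, 5610.1 and 6179.5 in the same order of groups, and Cct3 at 1247 and 1224, 2901, 2533 and 2267 and 4760.3, 4884 and 5235. In each of these genes the 3 groups were separated, with FAPs lowest and injured FAPs highest. For Tcp1 the log2 fold change was 2.08 (SE 0.10, limma adjusted p = 2.83e-07) in injured FAPs against FAPs and 0.81 (SE 0.09, adjusted p = 1.79e-05) in injured FAPs against ASCs. In ASCs against FAPs the direction held under every scaling for all 8, but 8 were called with a common 75th percentile, 4 with quantile normalization and 2 with a common total. Between injured FAPs and ASCs Cct5 lost its call without ASC replicate 3 or injured FAP replicate 3. Cct6b, a subunit of the testis, and Cct8l1 were below the filter.

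**Figure D4:**
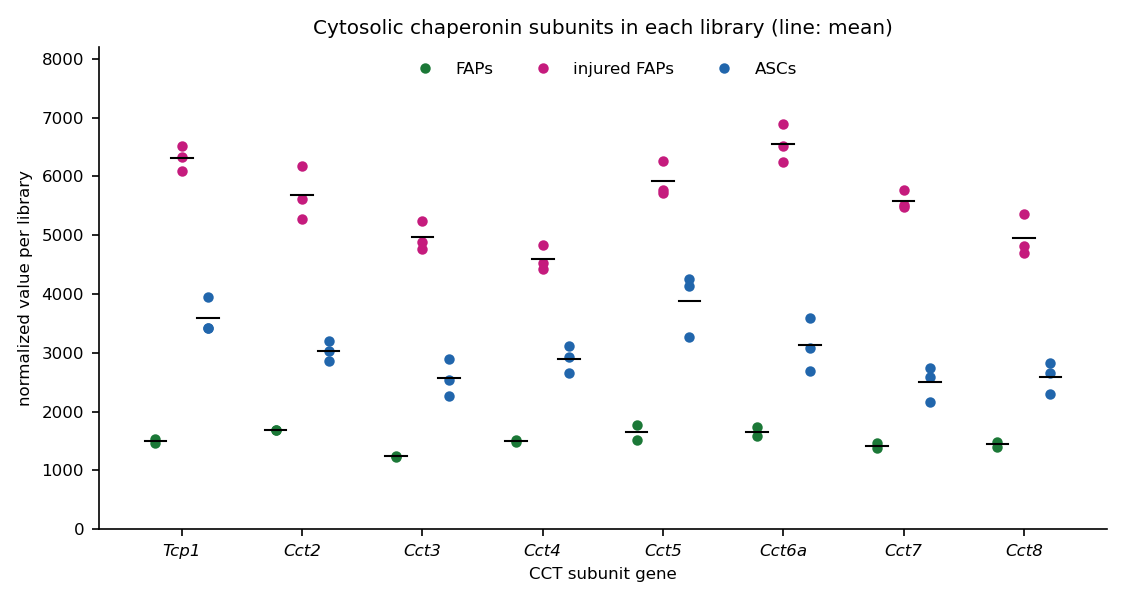
Normalized value (y axis, starting at 0) of the 8 tested CCT subunit genes (x axis) in each library of FAPs, injured FAPs and ASCs; points are libraries and lines are group means. In every subunit the FAP libraries are lowest and the injured FAP libraries highest, and the direction between groups held under the 3 other scalings.

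The mitochondrial chaperones Hspd1 (HSP60) and Hspe1 (HSP10), which form the folding chamber of the matrix, rose in injured FAPs. Hspd1 stood at 1909 and 2007 in FAPs, 3217, 3195 and 2649 in ASCs and 9456, 10249 and 11306 in injured FAPs. Hspe1 stood at 562 and 522 in FAPs, 678, 1074 and 834 in ASCs and 1896, 1787 and 2107 in injured FAPs. Both were separated between the 3 groups, and injured FAPs were highest by a wide margin. Against FAPs the log2 fold change of Hspd1 in injured FAPs was 2.40 (SE 0.12, limma adjusted p = 3.04e-07), the largest among the 80 members, and that of Hspe1 1.83 (SE 0.17, adjusted p = 8.36e-06). Their smaller differences between ASCs and FAPs (0.62 and 0.64) were called with the deposited scaling but with none of the 3 other scalings. Of the 50-base stretches, 44.8% of Hspd1 and 44.8% of Hspe1 occur in other genes, which makes their levels uncertain. The genes lie head to head on chromosome 1 and overlap by annotation. Between the RefSeq start of Hspe1 and the inner of the RefSeq starts of Hspd1 lies a run of alternating TTC and GAA units, in capitals, read here for Hspd1 on the minus strand and for Hspe1 on the plus strand, both at chr1:55088053-55088082 and within an exon of Hspd1:
Hspd1: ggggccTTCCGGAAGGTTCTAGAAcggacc
Hspe1: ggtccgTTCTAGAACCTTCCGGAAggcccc

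Hspa9 (mortalin), the HSP70 of the mitochondrial matrix on chromosome 18, stood at 2159 and 1928 in FAPs, 8164, 5765 and 5589 in ASCs and 7970.2, 8401 and 9029.8 in injured FAPs. FAPs were lowest by far, and ASCs and injured FAPs overlapped through ASC replicate 1. The log2 fold change was 2.05 (SE 0.16, limma adjusted p = 2.53e-06) in injured FAPs and 1.65 (SE 0.16, adjusted p = 1.12e-05) in ASCs, each against FAPs. For injured FAPs against ASCs it was 0.40, not called, but called higher with a common total and with quantile normalization. Dnajc15 and Dnajc19, J-domain proteins of the import motor, had larger values after injury (1.12 and 0.60), although Dnajc19 lost its call with a common 75th percentile, with a replicate block and without FAP replicate 2 or injured FAP replicate 1 or 3. Over the 10 mitochondrial members 5 were called higher (24.9% of all genes were) and 2 lower in injured FAPs against FAPs, 3 and 1 in ASCs against FAPs (median 0.07, but −0.14 with a common 75th percentile and −0.50 with a common total) and 4 and 1 in injured FAPs against ASCs (8 and none with a common total). Mitochondrial folding, protease and import genes outside the symbol rule, 15 in number, moved likewise, with 9 higher and none lower in injured FAPs against FAPs, 4 and none in ASCs against FAPs (median 0.26, −0.31 with a common total) and 7 and none in injured FAPs against ASCs. With a common total the last counts became 1 and 4 in ASCs and 15 and none in injured FAPs. Among them Trap1, the mitochondrial HSP90, stood at 1117 and 1069.7 in FAPs, 2517, 2468 and 2523 in injured FAPs and 1204, 1512 and 1235 in ASCs, and the import receptor Tomm70a at 659 and 591, 1878, 1968 and 2222 and 1553, 1291 and 1032.

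In the ER the HSP70 Hspa5 (BiP) was among the most abundant members. It stood at 27294 and 28836 in FAPs, 50025, 51682 and 50580.2 in injured FAPs and 58051, 60190.2 and 69087 in ASCs, so that FAPs were lowest and the groups did not overlap. Its log2 fold change was 0.86 (SE 0.13, limma adjusted p = 0.000201) in injured FAPs and 1.15 (adjusted p = 3.29e-05; 0.31, not called, with quantile normalization) in ASCs, each against FAPs. Between injured FAPs and ASCs its value of −0.29 was not called and became 0.94, called, with quantile normalization. Hsp90b1 (GRP94), the HSP90 of the ER, stood at 15423 and 14762 in FAPs, 29548, 32198 and 30468 in injured FAPs and 22291, 22998 and 24406 in ASCs. It was separated between the groups with injured FAPs highest, and its rise in injured FAPs was 1.03 (SE 0.11, limma adjusted p = 1.69e-05). In ASCs against FAPs its 0.62 became −0.12 with quantile normalization. Dnajc3, a J-domain partner of BiP that also restrains the kinase PERK, stood at 4504 and 4498 in FAPs, 7204, 7260.1 and 6871 in injured FAPs and 6791, 6330.1 and 7545 in ASCs.

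Dnajb9, an ER J-domain protein that helps to degrade misfolded proteins, was highest in ASCs, like Hspb8 and Bag3. It stood at 8984, 5716 and 8892 in ASCs, 2178 and 2342 in FAPs and 2362, 2013 and 1895 in injured FAPs, with every ASC library above the other 5 and an overlap of the FAP groups. The log2 fold change was 1.77 in ASCs against FAPs (SE 0.19, limma adjusted p = 2.25e-05) and −1.89 in injured FAPs against ASCs (adjusted p = 4.14e-06). Of the 11 ER members, 6 (54.5%, beside 24.9% of all genes) were called higher and none lower in injured FAPs against FAPs (median 0.58), the same numbers in ASCs against FAPs (23.4% of all genes higher, median 0.61), and none higher and 1 lower, Dnajb9, in injured FAPs against ASCs (0.05). Scaling mattered here as well. In ASCs against FAPs 3 were called higher with quantile normalization or a common 75th percentile and 2 with a common total (medians 0.05, 0.40 and 0.04), and in injured FAPs against ASCs 6 with a common total. Of 22 further genes of ER folding and the unfolded protein response, 10 were called higher and 3 lower in injured FAPs against FAPs. In ASCs against FAPs 9 were higher and 2 lower (median 0.45, but −0.11 with a common total and −0.12 with quantile normalization). Those counts became 3 and 3 with quantile normalization or a common 75th percentile and 2 and 4 with a common total. In injured FAPs against ASCs 5 were higher and 4 lower. There quantile normalization gave 12 and 2 and a common total 12 and 1. The lectin Canx rose from 5425 and 5056 in FAPs to 12905, 14094 and 14056 in injured FAPs, whereas the stress transcription factor Ddit3 fell from 558 and 638 to 275, 209 and 304. Atf4, a transcription factor of the stress response, stood at 35670.1, 23799.5 and 27269 in ASCs, 8824 and 7986 in FAPs and 9797, 8861 and 9778 in injured FAPs.

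The cytosolic HSP90 genes were abundant in every library. Hsp90ab1, the constitutive form, stood at 40939 and 42858 in FAPs, 69066, 66125 and 61376 in injured FAPs and 47296, 46579.6 and 46148 in ASCs. Hsp90aa1, the more inducible form, of whose 50-base stretches 58.5% occur in other genes, stood at 13046 and 10473 in FAPs, 18685, 18536 and 20681 in injured FAPs and 20599.5, 23198 and 22495 in ASCs. Both were called higher in injured FAPs than in FAPs (log2 fold change 0.64, limma adjusted p = 0.000999, and 0.72, adjusted p = 0.00055), but Hsp90ab1 lost its call with a common 75th percentile (0.55) and Hsp90aa1 without FAP replicate 2 (0.56). In ASCs against FAPs Hsp90aa1 alone was called higher (0.92), though not with a common total or quantile normalization, and the median of the pair, 0.54, turned to −0.03 with a common total and −0.16 with quantile normalization. A further list held 24 heat shock factors and co-chaperones of HSP90 or HSP70 outside the symbol rule. In injured FAPs against FAPs 8 of them were called higher and 3 lower. In ASCs against FAPs 6 were higher and 3 lower (median 0.08, negative under each of the 3 other scalings). These counts turned to 3 and 6 with a common 75th percentile, 2 and 4 with quantile normalization and 1 and 9 with a common total. In injured FAPs against ASCs 10 were higher and 4 lower (16 and 3 with a common total). The HSP90 co-chaperone Stip1, which links it to HSP70, stood at 2926 and 3086 in FAPs, 8191, 7929.7 and 7453 in injured FAPs and 3599, 4261 and 3272 in ASCs, and the activator Ahsa1 at 1446 and 1345, 2777, 2699 and 2589 and 1544, 1894 and 1532. The gene of the heat shock factor Hsf1 itself had 1863 and 1861 in FAPs, 1717, 1648 and 1516 in injured FAPs and 1947, 1753 and 1727 in ASCs and was called in no comparison. The ubiquitin gene Ubb, a further heat-inducible gene, stood at 44366, 43484 and 51526 in ASCs, 16117 and 14207 in FAPs and 12982, 11569 and 12068 in injured FAPs.

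Among the nucleotide exchange partners of HSP70, Hsph1 (HSP110) stood at 5697 and 6103 in FAPs, 5942, 5503 and 6325 in injured FAPs and 4457, 6229 and 4783 in ASCs, and the 3 groups overlapped. It was called in no comparison with the deposited scaling (log2 fold change 0.00, −0.21 and 0.21), but lower in ASCs than in FAPs and higher in injured FAPs than in ASCs with a common total (−0.78 and 0.91) and with quantile normalization (−0.75 and 0.63). Its relative Hspa4 stood at 2332 and 2193 in FAPs, 4704, 3658 and 3622 in ASCs and 5802, 6036 and 6536 in injured FAPs, an order like that of the CCT subunits, with a rise of 1.44 in injured FAPs (limma adjusted p = 5.88e-06). Bag2 rose from 164 and 197 in FAPs to 354, 299.9 and 371 in injured FAPs (0.92, adjusted p = 0.00124), whereas ASCs held 134, 102 and 131. Bag5 ran the other way, with 1249, 914 and 993 in ASCs, 560.1 and 598 in FAPs and 330.3, 407 and 365 in injured FAPs and no overlap between groups. Of the 10 HSP110 and exchange factor genes, 6 were BAG genes. In injured FAPs against FAPs 4 of the 10 were called higher, against 24.9% of all genes, and 1 lower, against 27.7%. In ASCs against FAPs 4 were higher, against 23.4% of all genes, and none lower, against 23.8% (median 0.06, but −0.15 with a common 75th percentile and −0.51 with a common total). Those counts became 4 and 2 with a common 75th percentile, 1 and 4 with a common total and 1 and 1 with quantile normalization. In injured FAPs against ASCs 4 were higher, against 25.0% of all genes, and 2 lower, against 25.8% (8 and 2 with a common total). Beside the same shares of all genes, the BAG genes alone gave 2 higher and 1 lower, 3 and none, and 1 and 2 in the same order of comparisons. Their median in ASCs against FAPs was 0.44 (−0.12 with a common total). Their counts there became 3 and 1 with a common 75th percentile, 1 and 2 with a common total and 1 and none with quantile normalization. In injured FAPs against ASCs a common total gave 4 and 2.

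The J-domain proteins were the largest and most varied family, of which 39 of 43 passed the filter. Of these, 10 (25.6%, near the 24.9% of all genes) were called higher and 5 lower in injured FAPs against FAPs, 11 (28.2%, beside 23.4%) and 6 in ASCs against FAPs (median 0.16, but −0.04 with a common 75th percentile and −0.40 with a common total) and 6 and 9 in injured FAPs against ASCs. The balance in ASCs against FAPs turned to 6 and 9 with a common 75th percentile and to 4 and 11 with a common total, that in injured FAPs against ASCs to 11 and 7 with a common 75th percentile and to 21 and 3 with a common total, and that between the FAP groups to 6 and 7 with a common 75th percentile. Dnajb1, the principal stress-inducible partner of Hspa1a, stood at 13254 and 10930.1 in FAPs, 4161, 3543 and 5035 in injured FAPs and 14233, 20334 and 20535 in ASCs. Every injured FAP library lay below the other 5, and every ASC library above the FAPs, whereas for Hspa1a the ASC libraries overlapped with injured FAPs and lay below the FAPs. It fell in injured FAPs against FAPs (log2 fold change −1.52, SE 0.19, limma adjusted p = 6.26e-05) and was lower in injured FAPs than in ASCs (−2.11, adjusted p = 2.33e-06). Its value of 0.59 in ASCs against FAPs was barely past the threshold, was lost without ASC replicate 2 (0.51), ASC replicate 3 (0.50) or FAP replicate 2 (0.45), with a replicate block, with edgeR and with a common 75th percentile (0.38) or a common total (0.02), and turned to −0.11 with quantile normalization.

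Other cytosolic J-domain proteins gave further orders of the groups. Dnaja4 stood at 1442 and 1376 in FAPs, 552, 493 and 606 in injured FAPs and 747, 701 and 807 in ASCs, the same order as Hspb1, with −1.36 in injured FAPs against FAPs (limma adjusted p = 5.88e-06), although 51.9% of its 50-base stretches lie in a gene on the opposite strand. Dnaja1, Dnajb4 and Dnajb6 were higher in ASCs than in FAPs (0.85, 1.36 and 1.35) and lower in injured FAPs than in ASCs (−0.78, −1.15 and −0.92), and none of them was called between the FAP groups. Dnaja1 lost the first call with a common total (0.28) or quantile normalization (0.29). With a common total these 3 kept their direction in injured FAPs against ASCs but not their call. Dnaja1 also lost its call in that comparison with quantile normalization. Dnajc9, which escorts histones, stood at 217 and 189 in FAPs, 126, 212 and 128 in ASCs and 996, 971 and 1107 in injured FAPs. Every injured FAP library lay above the other 5 for Dnajc9, with a log2 fold change of 2.33 (SE 0.21, limma adjusted p = 7.69e-06) against FAPs and 2.75 (SE 0.19, adjusted p = 7.93e-07) against ASCs. Dnajc2, the ribosomal partner of Hspa14, stood at 336 and 269 in FAPs, 335, 428 and 275 in ASCs and 790.1, 893 and 903 in injured FAPs and was called higher in injured FAPs than in FAPs (1.51) and than in ASCs.

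**Figure D5:**
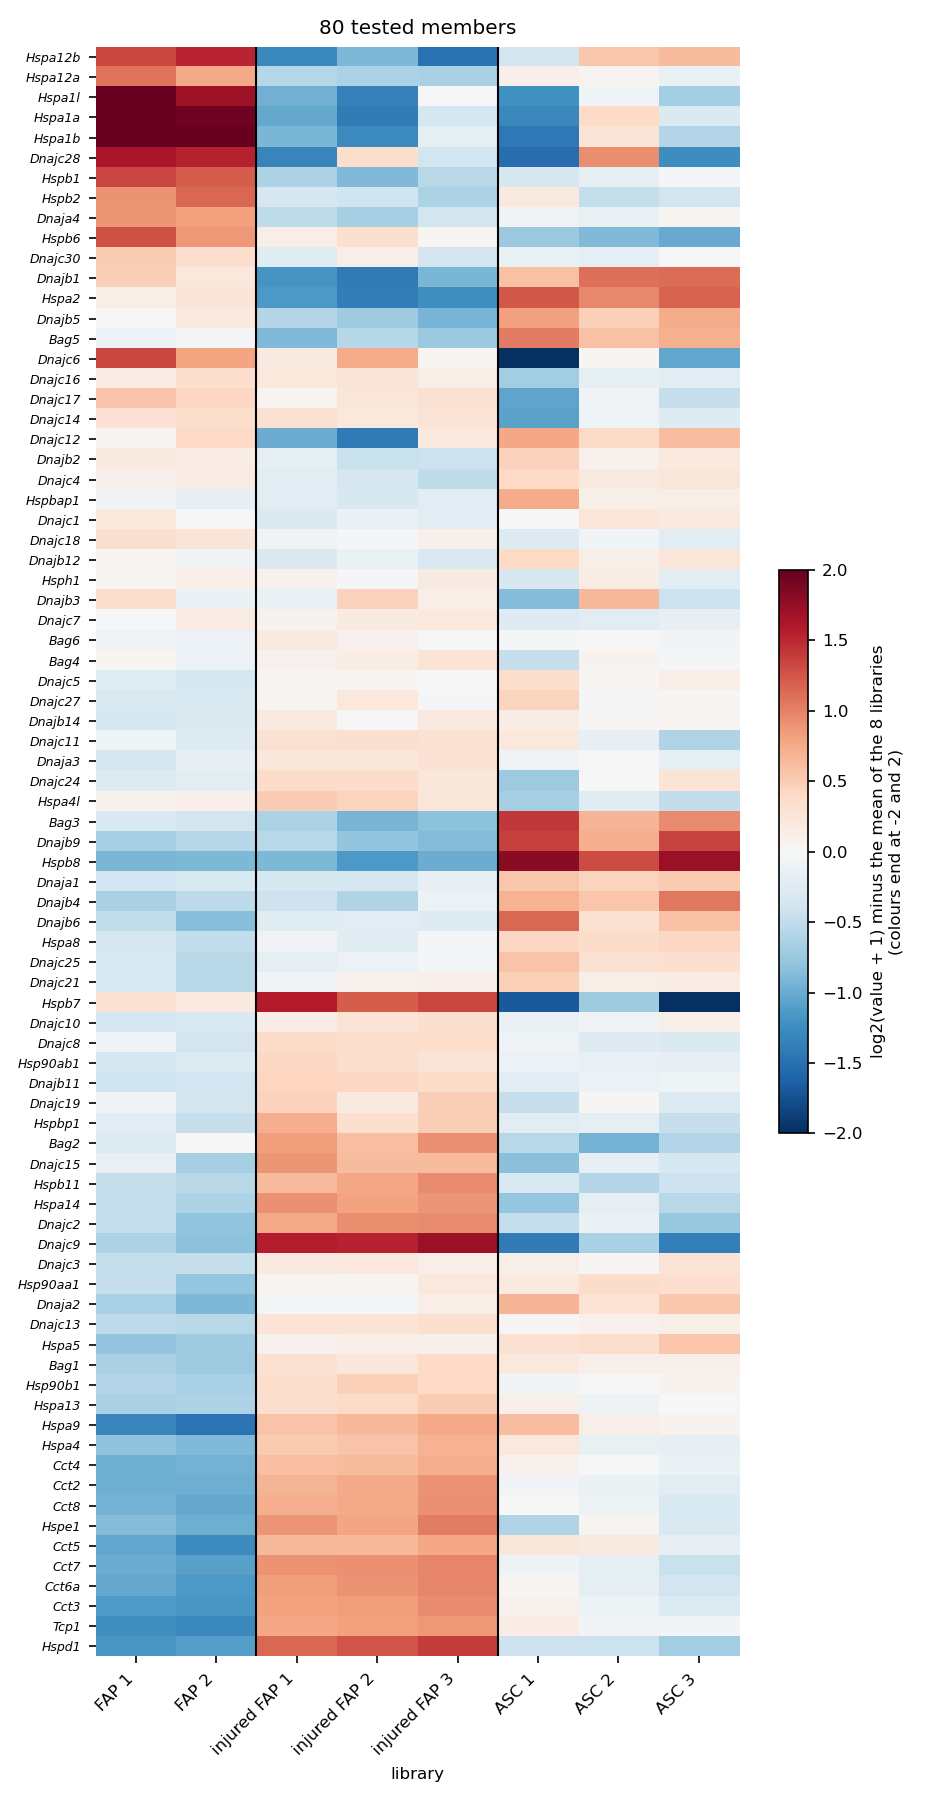
Log2(value + 1) minus the mean of the 8 stromal libraries (colour, ending at −2 and 2) for the 80 tested members (y axis), ordered by their calls, in FAPs, injured FAPs and ASCs (x axis). Hspa1a, Hspa1b and Hspb1 are red in both FAP libraries, the CCT subunits with Hspd1 and Hspe1 are red in injured FAPs, and Hspb8, Bag3 and Dnajb9 are red in ASCs; the colours use the deposited scaling, and small differences of other members turn under another scaling.

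Prefoldin delivers actin and tubulin to CCT, and the tubulin cofactors act after it. Their genes, together with Pdrg1, Uxt and Pdcl3, were taken as a list of 14. After injury 9 were called higher and 1 lower than in FAPs, in ASCs against FAPs 5 and 3 (median 0.29, −0.27 with a common total, and none and 4 called with a common 75th percentile) and in injured FAPs against ASCs 5 and 1 (13 and none with a common total). The tubulin cofactor Tbca stood at 394 and 351 in FAPs, 880.3, 861 and 1072 in injured FAPs and 594, 593 and 496 in ASCs. Most of the list thus rose in injured FAPs, as the CCT subunits did, but Tbcc was called lower (−0.83). Pfdn5 (0.05), Pdcl3 (0.12), Tbce (−0.28) and Pdrg1 (−0.40) were not called.

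Levels of different members can be compared only per length, and the order depends on the length used. Per kilobase of all annotated exons Hspa1b stood at 24913 ± 2477 in FAPs (SD, n = 2), Hsp90ab1 at 13971 ± 452, Hspa1a at 13876 ± 504 and Hspa8 at 13502 ± 952. Per kilobase of the protein-coding transcript Hspa1b and Hspa1a kept these values, Hsp90ab1 came to 16626 ± 538 and Hspa8 to 24257 ± 1711, within the spread of Hspa1b. In injured FAPs (SD, n = 3) Hsp90ab1 led with 21848 ± 1294 per kilobase of exons, ahead of Hspa8 at 16702 ± 1264, but Hspa8 led with 30006 ± 2272 per kilobase of transcript, ahead of Hsp90ab1 at 26001 ± 1539.7. In ASCs (SD, n = 3) Hspa8 led on both scales, at 23879 ± 391 and 42900.2 ± 703. Hspa1b stood at 3591 ± 1435 in injured FAPs and 4386 ± 2452 in ASCs. It was thus among the leading chaperone transcripts in FAPs and below them in the other groups on either scale, and shared sequence limits these levels for Hspa8, Hspa1a and Hspa1b.

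Heat shock elements are repeats of GAA and TTC units spaced 2 bases apart, to which heat shock factors bind. RefSeq promoters, 250 bases before to 50 after a gene start, were at hand for 73 members (93 promoters). A pair of units, GAANNTTC or TTCNNGAA on either strand, was in 23.7% of member promoters beside 15.1% of all 32851 promoters, and 3 alternating units, which contain a pair of each kind, were in 6.45% beside 0.603%. Counted by gene, the shares were 27.4% beside 17.0% for a pair and 5.48% beside 0.662% for 3 units. The 6 member promoters with 3 units rest on 3 separate stretches, as Hspd1 and Hspe1 share theirs and Dnajb6 and Hsph1 each have overlapping promoters, and in Hsph1 the run lies after the start. Dnajb6 is shown at chr5:29735843-29735872 on the plus strand, in an exon of Dnajb6 and of an overlapping gene, and Cct2, with a single pair, at chr10:117063399-117063428 on the minus strand, outside any exon, to set a run beside a pair, with the units in capitals:
Dnajb6: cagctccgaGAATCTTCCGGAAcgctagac
Cct2: ccccaagtgaaGAAGTTTCtagcaggacct
Of the 66 tested members with a promoter, 18 held a pair. Among those called lower than FAPs in both other groups it was 5 of 9, and among those called higher in both 5 of 16. Members with the motif thus included genes that fell in injured FAPs (Hspa1a, Hspa1b and Hspb1) and genes that rose (Hspd1, Hspe1 and Cct2). They also included Hsph1 and Dnajc27, which were called in no comparison with the deposited scaling. A match is a description of the sequence and not a site of binding.

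The single CD31+CD45+ library of injured quadriceps, which entered no test, held 54566 of Hspa1a and 73404 of Hspa1b, in both cases above every ASC and injured FAP library. Its Hspb1, at 32189, lay above all 8 stromal libraries, and its Hspb8, at 207, below them all. The 8 CCT subunits tested in the stromal libraries lay between 1273 (Cct3) and 2111 (Cct7), each below all ASC and injured FAP libraries. Hspa5, at 11549, was below every stromal library.

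Markers of other cells were low but present in the sorted libraries. The 8 endothelial markers summed to 3582 and 1920.2 in FAPs, 1159.7, 1319 and 943 in injured FAPs, 519, 322 and 257 in ASCs and 268822 in the CD31+CD45+ library, with Cdh5 the highest in mean over the stromal libraries. Of these, 7 were tested, and 4 were higher and none lower in injured FAPs than in ASCs. The 11 leukocyte markers summed to 265 and 497 in FAPs, 566, 2558 and 479.7 in injured FAPs, 462, 384 and 373 in ASCs and 29731 in the CD31+CD45+ library, with Cd68 the leading gene in most stromal libraries, and injured FAP replicate 2 stood above the other stromal libraries. Of 7 tested, 5 were higher and 1 lower in injured FAPs than in ASCs. Without it 32 members were called higher and 15 lower in injured FAPs against FAPs. Vwf, Emcn, Cldn5, Ptprc, Lyz2, Cd74 and Csf1r were at exactly 0 in both FAP libraries, while Cdh5, Kdr and Tie1 were not. Of 4193 genes at 1000 or more in the CD31+CD45+ library, 56 had the value 0 in each FAP library, while 6 had it throughout the ASCs and 1 throughout the injured FAPs. The sums of these 2 lists in FAPs therefore leave out genes, and calls against FAPs are not given for them. No member was at 0 in both FAP libraries alone.

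Satellite cell markers summed to 284 and 402 in FAPs, 275, 212 and 231 in injured FAPs and 9.22, 10.2 and 3.77 in ASCs, with Chodl leading in both FAP groups, and 3 of 6 were tested, with 1 called lower in injured FAPs and 3 in ASCs than in FAPs. Adipocyte markers summed to 795 and 843, 153, 199.9 and 149 and 447, 473 and 475, with Lipe leading in both FAP groups and Plin4 in ASCs, and of 4 tested 3 were higher and 1 lower in ASCs than in FAPs and 3 lower in injured FAPs than in FAPs. The part of other cells in the differences of the members was not tested.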

How the data were processed

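RNA of sorted ASCs, FAPs, injured FAPs and CD31+CD45+ cells was sequenced by BGI (DNBSeq). The authors filtered the reads, checked them with FastQC, mapped them with HISAT2 (mm10), obtained gene counts from featureCounts (Subread) and used DESeq2 (tools as named in the submitters' processing notes). The authors deposited 1 signal value per gene and library, named normalized counts. Their scaling, the strand setting and the handling of reads with several matches are not stated. All values (100% in each library, tolerance 0.1 reads) could be written as a whole number of reads over a factor per library, which ran from 0.759 to 0.883 in ASCs, 1.05 to 1.06 in FAPs and 1.27 to 1.31 in injured FAPs, and was 0.637 in the CD31+CD45+ library. The table has 2 empty columns, and 6684 genes are at 0 throughout. Libraries held 13091077 to 27481573 reads on genes, which limits low genes to the value of 3 reads, 2.29 to 4.71.

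Groups came from the sample labels. Limma 3.58.1 in R 4.3.3 was fitted to log2(value + 1) with a mean per group over 8 libraries and a trend in the prior variance, for the 13601 genes averaging 10 or more, with Benjamini-Hochberg adjustment. The recovered reads went into edgeR 4.0.16 and DESeq2 1.42.0 as alternatives. All 3 methods, limma included, were run on simulated data, for which no outcome is given here. Further alternatives were pseudocounts of 0.5 and 8, no filter or a mean of 50, quantile normalization, a common 75th percentile, a common total, a fit of only the groups compared, a replicate block, the omission of any 1 library, the unadjusted p, no minimum fold and a log2 fold change beyond 1. The members are described by counts and medians beside those of all genes tested, the lists by their counts and, in part, medians. Gene positions, exon lengths and shared 50-base stretches came from GENCODE M21 (GRCm38), promoters from RefSeq (GRCm38.p6).

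The members and lists were chosen with earlier results of these data known. Named genes are a list of 26 members and, in each comparison, up to 6 called members per direction, taken by size of change from those averaging 100 or more whose libraries did not overlap between the groups compared. Other genes named as examples were chosen after their values were seen. Members of mouse chromosome 18 have no sequence shown. One marker list is not reported here.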

Additional observations from a re-analysis of the deposited data

Results flagged for a closer look

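Hspa12b had a value of 9756 in the CD31+CD45+ library, which no comparison uses, against at most 1161 in the 8 stromal libraries. It was the one member with at least 100 there and at least 4 times the highest stromal value. Endothelial markers in the same library summed to 268822, against at most 3582 in a stromal library, and their part in this value was not tested. The library has no replicate.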

How the results depend on the processing

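The 102 single results of the 34 named members were recomputed under 22 alternatives. Of these values 2099 kept their direction and side of the threshold, 81 lost the call, 31 gained one and 33 turned, most of them small differences called in neither setting.

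In injured FAPs against FAPs Dnaja1 turned with a common 75th percentile (−0.0242) and quantile normalization (−0.0907), Hsph1 with the same settings (−0.0908 and −0.125), and Dnajb9 (0.0134) and Hspb8 (0.0298) with a common total. In ASCs against FAPs a common 75th percentile turned Dnajc2 (−0.0303), Hsp90ab1 (−0.0535) and Hspa14 (−0.167), a common total the same genes (−0.387, −0.411 and −0.524), and quantile normalization Hsp90ab1 (−0.51), Dnajb1 (−0.112) and Hsp90b1 (−0.12). For injured FAPs against ASCs a common total turned Hsp90aa1 (0.503), Hspa12a (0.0766), Hspa1a (0.171), Hspa1b (0.496), Hspa5 (0.404), Hspa8 (0.18) and Hspb1 (0.192), and quantile normalization Hsp90aa1 (0.578), Hspa1b (0.372), Hspa5 (0.936) and Hspa8 (0.599). With single libraries left out the sign also changed for Hsph1 between the FAP groups (−0.0454 to 0.0562), Hspa14 in ASCs against FAPs (−0.114 to 0.176), and Hspa1b (−0.623 to 0.217) and Dnajc3 (−0.00979 to 0.117) when injured FAPs were set against ASCs. No member called in one direction was called in the other under any alternative.

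Counts of members called moved by more than 1.5 times as follows. In ASCs against FAPs, 10 were higher with a common total, 18 with quantile normalization and 11 beyond a log2 fold change of 1, and 24 were lower with a common total. In injured FAPs against ASCs, 47 were higher and 8 lower with a common total, and 12 and 10 beyond a log2 fold change of 1. Between the FAP groups, 20 were higher beyond a log2 fold change of 1. The stricter fold leaves fewer genes by construction.

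The median log2 fold change of the members in ASCs against FAPs was 0.0503 with a common 75th percentile, −0.31 with a common total and 0.17 with quantile normalization. In injured FAPs against ASCs it was 0.33, 0.91 and 0.39 with a common 75th percentile, a common total and quantile normalization. For injured FAPs against FAPs it was 0.25, 0.48 and 0.39 in the same order, 0.39 with edgeR, 0.44 with a mean of at least 50 and 0.30 without a filter. A common total or percentile moves all genes of a library alike. With single libraries left out the medians ran from 0.30 to 0.41, 0.25 to 0.27 and 0.14 to 0.30 for the comparison of the FAP groups, of ASCs with FAPs and of injured FAPs with ASCs, and the counts from 30 to 33 higher and 13 to 15 lower, 30 to 33 and 13 to 17, and 21 to 25 and 12 to 17. Where a FAP library was left out, the lone one was assumed to vary like the other groups.

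Whether replicate numbers pair samples is not known. Residuals of ASCs and injured FAPs with the same number, which came from differently injected mice, correlated at 0.004, −0.003 and 0.012 across genes. ASCs and FAPs were both from mice given NaCl. Residuals of FAP replicate 1 correlated at 0.045, 0.054 and −0.123 with ASC replicates 1, 2 and 3. With 2 FAP libraries those of replicate 2 mirror these values, so they cannot decide whether numbers paired mice. With a replicate block the median in injured FAPs against FAPs was 0.39, and 32 members were higher and 14 lower, 32 and 16 in ASCs against FAPs, with 24 and 16 when injured FAPs were set against ASCs.

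The comparisons with FAPs rest on 2 FAP libraries, so that their spread is largely borrowed from the other groups. Whether replicates of a group came from the same pooled animals is not stated, so the spread between animals is not known. Tissue, depot and digestion differ together between ASCs and both FAP groups. The paper reports that ASCs enter the muscle after injury. In the injured FAP libraries such cells were not told apart from FAPs of the muscle itself. The scaling behind the deposited values is not stated, and the direction of small differences with ASCs depends on it. The division of reads among genes with shared sequence, above all Hspa1a and Hspa1b, is unknown. Low members such as Dnajc28 and Dnajc6 rest on few reads. RNA levels do not give protein levels.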
